A study of Rattus norvegicus with 12 samples.

Results

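The GATA, HAND and core cardiac transcription factors were 9 named genes, Gata4, Gata5, Gata6, Hand1, Hand2, Mef2c, Tbx5, Tbx20 and Nkx2-5, taken as every probe set of the array that carried one of these symbols and no other. A probe set is a group of short DNA probes that together report 1 transcript. The genes had 13 probe sets among the 31099 of the array and 8 of the 9 genes had at least 1. Tbx20 had none and was not measured. The adult aorta held less Gata5 signal than the neonatal aorta, and less Hand2 and Gata6, each by 1 of its 2 probe sets. The Gata6 call held in 9 of 12 fits with 1 array left out. The other Gata6 probe set had the opposite sign there, without a call, and was lower in adult valve than in adult aorta. The valves held more Gata5 signal than the aorta at both ages, and more Gata4 by 1 of its 2 probe sets. Hand2 was also higher in adult valve than in adult aorta, again by 1 of its 2 probe sets. Nkx2-5 was lower in adult than in neonatal valve, a call that held in only 4 of 12 fits with 1 array left out.

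These factors form the core gene regulatory network of the heart. GATA factors are zinc finger proteins that bind the letters GATA, HAND factors are basic helix-loop-helix proteins that pair with E proteins on E-boxes, and Nkx2-5 (a homeodomain protein), Tbx5 (a T-box protein) and Mef2c (a MADS-box protein) bind beside them on the promoters and enhancers of heart muscle genes. In the embryo Gata4, Gata5, Hand2 and Tbx20 act also in the endocardial cushions, the tissue from which the valves form, and Gata6 and Hand2 act in the neural crest cells and smooth muscle of the outflow tract and great arteries. The roles given here and below are known mainly from mice.

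Wistar rats were the strain of all samples, and their RNA was hybridised to 12 Affymetrix arrays, which the sample titles divide into 4 groups of 3. Adult valve was semilunar valve tissue, aortic and pulmonary together, of rats labelled male. Neonatal valve was the same tissue collected within 24 h of birth. Adult aorta was the proximal part of the vessel of rats labelled male, and neonatal aorta was that part collected within 24 h of birth. No age is stated for the adults, no sex for the neonates, and no genotype or treatment for any group. The labels do not state whether replicates were separate animals or pools, so the p-values measure only the spread between these samples. Each value was a MAS5 signal, a brightness on a linear scale made from the probes of a probe set, and tests used log2 of the signal.

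The labels of 6 samples conflicted, since the description and tissue entries of the 3 arrays titled adult aorta name neonatal valve, and those of the 3 arrays titled neonatal valve name adult aorta. Titles and source names matched each other and define the groups here, and values under the other grouping stand in the closing section. The adult valve arrays, labelled male, read 12355 to 18362 for the brightest probe set of Xist, a transcript made only from an inactive X chromosome, and at most 8.91 for the Y-linked Eif2s3y, so all 3 went against their label. Neonatal valve arrays also read 10998 to 15809 for Xist, whereas adult aorta arrays read 15.9 to 25.2 and neonatal aorta arrays 5.08 to 297. Valve and aorta arrays therefore differed in sex-linked RNA, and they also differed in RNA quality. For beta-actin the 3′ over 5′ probe set ratio, which is high in degraded RNA, was 7.24 to 13.99 on valve arrays and 1.40 to 2.59 on aorta arrays. In the comparisons of valve with aorta, tissue, sex-linked RNA and RNA quality cannot be told apart. Within valve the ratio also differed by age, at 10.65 to 13.99 on adult and 7.24 to 8.84 on neonatal valve arrays. Age and RNA quality cannot be told apart in adult against neonatal valve.

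Single arrays also stood apart. Adult aorta 1 had a summed signal of 248159 over 15 skeletal muscle markers and 148400 over 7 markers of squamous epithelium, against at most 46227 and 64412 on any other array. The squamous sum of 64412 was that of neonatal aorta 2, where neonatal aorta 1 and 3 had 6737 and 2248. Neonatal valve 3 had 36073 over 8 thymocyte markers, against at most 3235 elsewhere. On neonatal aorta 2 and 3 the 4 control RNAs that are added to a sample before labelling were missing, and their 3′ probe sets read 5.82 to 54.6 there. This range shows what a probe set read when its RNA was absent, and 54.6 is called the absent level below. Within a group, arrays had Spearman correlations of 0.916 to 0.953 in adult valve, 0.926 to 0.953 in neonatal valve, 0.812 to 0.925 in adult aorta and 0.948 to 0.960 in neonatal aorta.

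To be tested, a probe set had to exceed a signal of 172 on at least 3 of the 12 arrays, a limit set at the median of all values. Of the 13 probe sets 9 passed, for 7 genes, and both Hand1 probe sets did not. Tests were made with limma on all 18552 probe sets that passed, and a difference was called at a Benjamini-Hochberg adjusted p under 0.05 over all of them. Folds between groups and adjusted p-values below come from that fit, and errors after ± are standard errors of the fit unless given as SD.

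Gata4, a zinc finger factor of heart muscle, endocardium and cushion mesenchyme, was measured by 2 probe sets. With probe set 1387894_at, its signal was 567, 1166 and 1998 on the adult valve arrays and 1332, 1011 and 1455 on the neonatal valve arrays. The adult aorta arrays read 71.7, 64.2 and 108, and the neonatal aorta arrays read 187, 160.0 and 287. Every valve array was above every aorta array, adult and neonatal valve overlapped, and every adult aorta array lay below every neonatal aorta array. Gata4 was 13.8-fold higher in adult valve than in adult aorta (a log2 difference of 3.79 ± 0.42, limma adjusted p = 0.00016) and 6.11-fold higher in neonatal valve than in neonatal aorta (2.61 ± 0.42, adjusted p = 0.0011). Both calls held in the fit without any single array. Adult against neonatal aorta gave -1.37 ± 0.42 with a limma adjusted p of 0.072, which missed the threshold, though it passed without adult valve 1 (0.031) or adult valve 3 (0.034). Adult against neonatal valve gave -0.19 ± 0.42 (adjusted p = 0.81).

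The other Gata4 probe set, 1370293_at, read lower and in another order. It had 7.83, 10.7 and 17.8 on adult valve arrays, 53.7, 94.9 and 89.2 on neonatal valve arrays, 91.0, 83.5 and 73.0 on adult aorta arrays and 118, 124 and 231 on neonatal aorta arrays. It stayed at or below the absent level on all adult valve arrays, did not pass the filter and was not tested. Over the 12 arrays the log2 signals of both probe sets had a Pearson correlation of -0.49, so the higher valve signal of Gata4 rests on 1387894_at.

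Gata5, a GATA factor known from endocardium and from the formation of the aortic valve in mice, had 1 probe set, 1374125_at. Its signal was 94.6, 164 and 199.5 on adult valve arrays and 447, 364 and 309 on neonatal valve arrays. Adult aorta arrays read 18.0, 7.66 and 15.5, all at or below the absent level, and neonatal aorta arrays read 94.6, 108 and 88.1. The order of the groups was neonatal valve, adult valve, neonatal aorta and adult aorta, and only adult valve and neonatal aorta overlapped. Gata5 was at least 2.67-fold higher in adult valve than in adult aorta (log2 difference 3.50 ± 0.44, limma adjusted p = 0.00026) and 3.82-fold higher in neonatal valve than in neonatal aorta (1.93 ± 0.44, adjusted p = 0.0067). It was at least 1.77-fold lower in adult than in neonatal aorta (-2.91 ± 0.44, limma adjusted p = 0.0037). These lower bounds set the adult aorta at the absent level and take the mean of the other group, with no allowance for its spread. The fitted values below that level are no measure of size. With 32 added to every signal the last difference was -1.50. In adult against neonatal valve the difference was -1.34 ± 0.44 with an adjusted p of 0.078, and it passed without adult aorta 1 (0.043) or adult aorta 2 (0.041), which alter only the shared spread.

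The added control RNAs were missing on 2 of the 3 neonatal aorta arrays, and that batch was entered as a term of the model in another fit. Gata5 then differed between adult and neonatal aorta by -2.88 with a limma adjusted p of 0.12, and between neonatal valve and neonatal aorta by 1.96 with an adjusted p of 0.095, so neither was called. Gata4 in neonatal valve against neonatal aorta was called with that term as well. The control RNA batch lies wholly within the neonatal aorta, where the fit has only neonatal aorta 1 outside it.

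Gata6, a GATA factor of vascular smooth muscle and of the outflow tract, was measured by 2 probe sets that gave different patterns. Probe set 1368827_at read 517, 728 and 498 on adult valve arrays and 862, 711 and 721 on neonatal valve arrays. Adult aorta arrays read 69.0, 501 and 450.4, and neonatal aorta arrays read 1202, 1506 and 1919. The neonatal aorta was the highest group and overlapped none of the others, and adult aorta 1 stood far below the other two adult aorta arrays. By this probe set Gata6 was 6.07-fold lower in adult than in neonatal aorta (-2.60 ± 0.60, limma adjusted p = 0.025). Without adult aorta 1, the array with skeletal muscle and squamous markers, the difference was -1.67 and still called. It was not called without neonatal aorta 1 (-2.77, limma adjusted p = 0.066), neonatal aorta 2, which held squamous markers (-2.61, 0.084), or neonatal aorta 3 (-2.43, 0.10), nor with the control RNA batch in the model (-2.27, 0.36). Neonatal valve against neonatal aorta gave -0.99 ± 0.60 (adjusted p = 0.23), and without adult aorta 1 the limma adjusted p was 0.0057 at the same difference. Adult valve against adult aorta gave 1.20 ± 0.60 (adjusted p = 0.14).

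Probe set 1375613_at of Gata6 read 109.6, 90.8 and 65.7 on adult valve arrays and 92.1, 111 and 77.0 on neonatal valve arrays, against 284, 516 and 403 on adult aorta arrays and 199.8, 124 and 248 on neonatal aorta arrays. Here the adult aorta was the highest group, and every aorta array lay above every valve array. The signal was 4.49-fold lower in adult valve than in adult aorta (-2.17 ± 0.36, limma adjusted p = 0.0011), and this call held without any single array. Adult against neonatal aorta gave 1.09 ± 0.36 (adjusted p = 0.087), of the opposite sign to the first probe set, and without adult aorta 1 the limma adjusted p was 0.043. Neonatal valve against neonatal aorta gave -0.99 ± 0.36 (adjusted p = 0.053), and the limma adjusted p was under the threshold without adult valve 3 (0.045), adult aorta 1 (0.039) or neonatal aorta 2 (0.035). The log2 signals of the 2 Gata6 probe sets had a Pearson correlation of -0.25 over the 12 arrays. The files do not say which transcript forms each probe set reports, and no direction for the gene as a whole in the aorta by age follows from them.

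Hand2, a helix-loop-helix factor of the outflow tract, neural crest and endocardium, had 2 probe sets. Probe set 1374451_at read 371, 508 and 657 on adult valve arrays and 421, 352 and 366 on neonatal valve arrays. Adult aorta arrays read 28.8, 52.8 and 45.4, all at or below the absent level, and neonatal aorta arrays read 189, 198 and 257. Adult and neonatal valve overlapped at the top, neonatal aorta lay below both, and adult aorta lay below all other groups. Hand2 was at least 9.12-fold higher in adult valve than in adult aorta (3.60 ± 0.30, limma adjusted p = 4.1e-05) and at least 3.89-fold lower in adult than in neonatal aorta (-2.37 ± 0.30, adjusted p = 0.0014). Both were called without any single array, and with the control RNA batch in the model the aorta difference was -2.21 with a limma adjusted p of 0.083. Neonatal valve against neonatal aorta gave 0.83 ± 0.30 (adjusted p = 0.055), just short of a call, and was called after centring each array on its median (1.16, adjusted p = 0.0099) and after quantile normalization (1.04, 0.016). It was also called without adult valve 3 (limma adjusted p = 0.047), adult aorta 1 (0.025) or adult aorta 2 (0.048). Adult against neonatal valve gave 0.40 ± 0.30 (adjusted p = 0.44).

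The other Hand2 probe set, 1369817_at, read 14.8, 46.7 and 44.6 on adult valve arrays, 13.4, 44.7 and 19.4 on neonatal valve arrays, 72.7, 61.5 and 11.5 on adult aorta arrays and 45.0, 37.4 and 9.74 on neonatal aorta arrays. All 4 groups overlapped and 10 of the 12 arrays were at or below the absent level, so it was not tested. Hand1, the relative of Hand2 known from the left ventricle and the extraembryonic tissues, read low as well. Probe set 1370128_at was at or below the absent level on 10 of the 12 arrays and read 4.50, 13.1 and 86.8 on adult valve arrays, 6.68, 3.84 and 7.50 on neonatal valve arrays, 26.1, 137 and 17.6 on adult aorta arrays and 30.0, 9.52 and 11.2 on neonatal aorta arrays. Hand1 probe set 1375301_at ranged over 69.1 to 81.5 in adult valve, 48.1 to 74.6 in neonatal valve, 90.3 to 184 in adult aorta and 70.4 to 124 in neonatal aorta, above the absent level on all arrays but neonatal valve 3. Its order was adult aorta, neonatal aorta, adult valve and neonatal valve, with overlap between each group and the next. Neither Hand1 probe set passed the filter, so Hand1 was not tested.

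Nkx2-5, the homeodomain factor of heart muscle precursors, had 1 probe set, 1369987_at. Its signal was 101, 269 and 65.3 on adult valve arrays and 464, 509 and 531 on neonatal valve arrays. Adult aorta arrays read 49.1, 141 and 53.2, with 2 of 3 at or below the absent level, and neonatal aorta arrays read 140.3, 211 and 377. The 3 neonatal valve arrays lay close together above every other array, and the other 3 groups overlapped. Nkx2-5 was 4.14-fold lower in adult than in neonatal valve (-2.05 ± 0.56, limma adjusted p = 0.046). The call held in 4 of the 12 fits with 1 array left out, with differences of -2.63 to -1.60 and limma adjusted p from 0.019 to 0.13. It was lost without adult valve 1 (0.12) or adult valve 3 (0.13), without neonatal valve 1, 2 or 3 (each 0.11), and without neonatal aorta 1 (0.057), 2 (0.070) or 3 (0.054). The call was also lost when no filter was set (limma adjusted p = 0.062). Adult against neonatal aorta gave -1.64 ± 0.56 (adjusted p = 0.10), and neonatal valve against neonatal aorta gave 1.16 ± 0.56 (adjusted p = 0.14). Adult valve against adult aorta gave 0.76 ± 0.56 (adjusted p = 0.32).

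Tbx5, the T-box factor of the atria and left ventricle, had 1 probe set, 1377139_at. Its signal was 61.7, 1662 and 123 on adult valve arrays and 694, 2694 and 786 on neonatal valve arrays, against 53.0, 52.9 and 69.3 on adult aorta arrays and 556, 312 and 736 on neonatal aorta arrays. Every adult aorta array lay below every neonatal aorta array, and 2 of the 3 adult aorta arrays were at or below the absent level. Replicate 2 was far above the other arrays within both valve groups. None of the comparisons of Tbx5 was called with all arrays and the signals as deposited. After quantile normalization adult against neonatal aorta (-3.47, limma adjusted p = 0.038) and adult valve against adult aorta (2.635, 0.045) were called. Adult against neonatal aorta gave -3.12 ± 0.98 (limma adjusted p = 0.079), and adult against neonatal valve gave -2.29 ± 0.98 (adjusted p = 0.16). Without adult valve 2 these were -3.12 (limma adjusted p = 0.0096) and -3.71 (adjusted p = 0.0074), both called. For the aorta, leaving out that array alters only the shared spread. Adult valve against adult aorta gave 2.01 ± 0.98 (adjusted p = 0.13), and without adult valve 1 it was 2.96 and called (adjusted p = 0.036). With 32 added to every signal, adult against neonatal aorta gave -2.58 and adult valve against adult aorta gave 1.69.

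Mef2c, the MADS-box factor of muscle and endothelium, passed the test in none of the comparisons. Probe set 1372332_at read 5134, 3450 and 2080.2 on adult valve arrays, 4071, 4117 and 2330.0 on neonatal valve arrays, 5977, 2071 and 3512 on adult aorta arrays and 1662, 2511 and 1924 on neonatal aorta arrays. All 4 groups overlapped. The limma adjusted p of this probe set was 0.27 for adult against neonatal aorta (0.81 ± 0.42), 0.98 for adult against neonatal valve (-0.03 ± 0.42), 0.19 for neonatal valve against neonatal aorta (0.76 ± 0.42) and 0.90 for adult valve against adult aorta (-0.08 ± 0.42). Probe set 1373410_at ranged over 606 to 2115 in adult valve, 965 to 2403 in neonatal valve, 1397 to 4374 in adult aorta and 782 to 2764 in neonatal aorta, again with overlap between all groups. Its differences ran from -1.19 ± 0.61 in adult valve against adult aorta to 1.09 ± 0.61 in adult against neonatal aorta, with limma adjusted p of 0.15 and 0.32, and the log2 signals of the 2 Mef2c probe sets had a Pearson correlation of 0.78 over the 12 arrays.

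**Figure D1:**
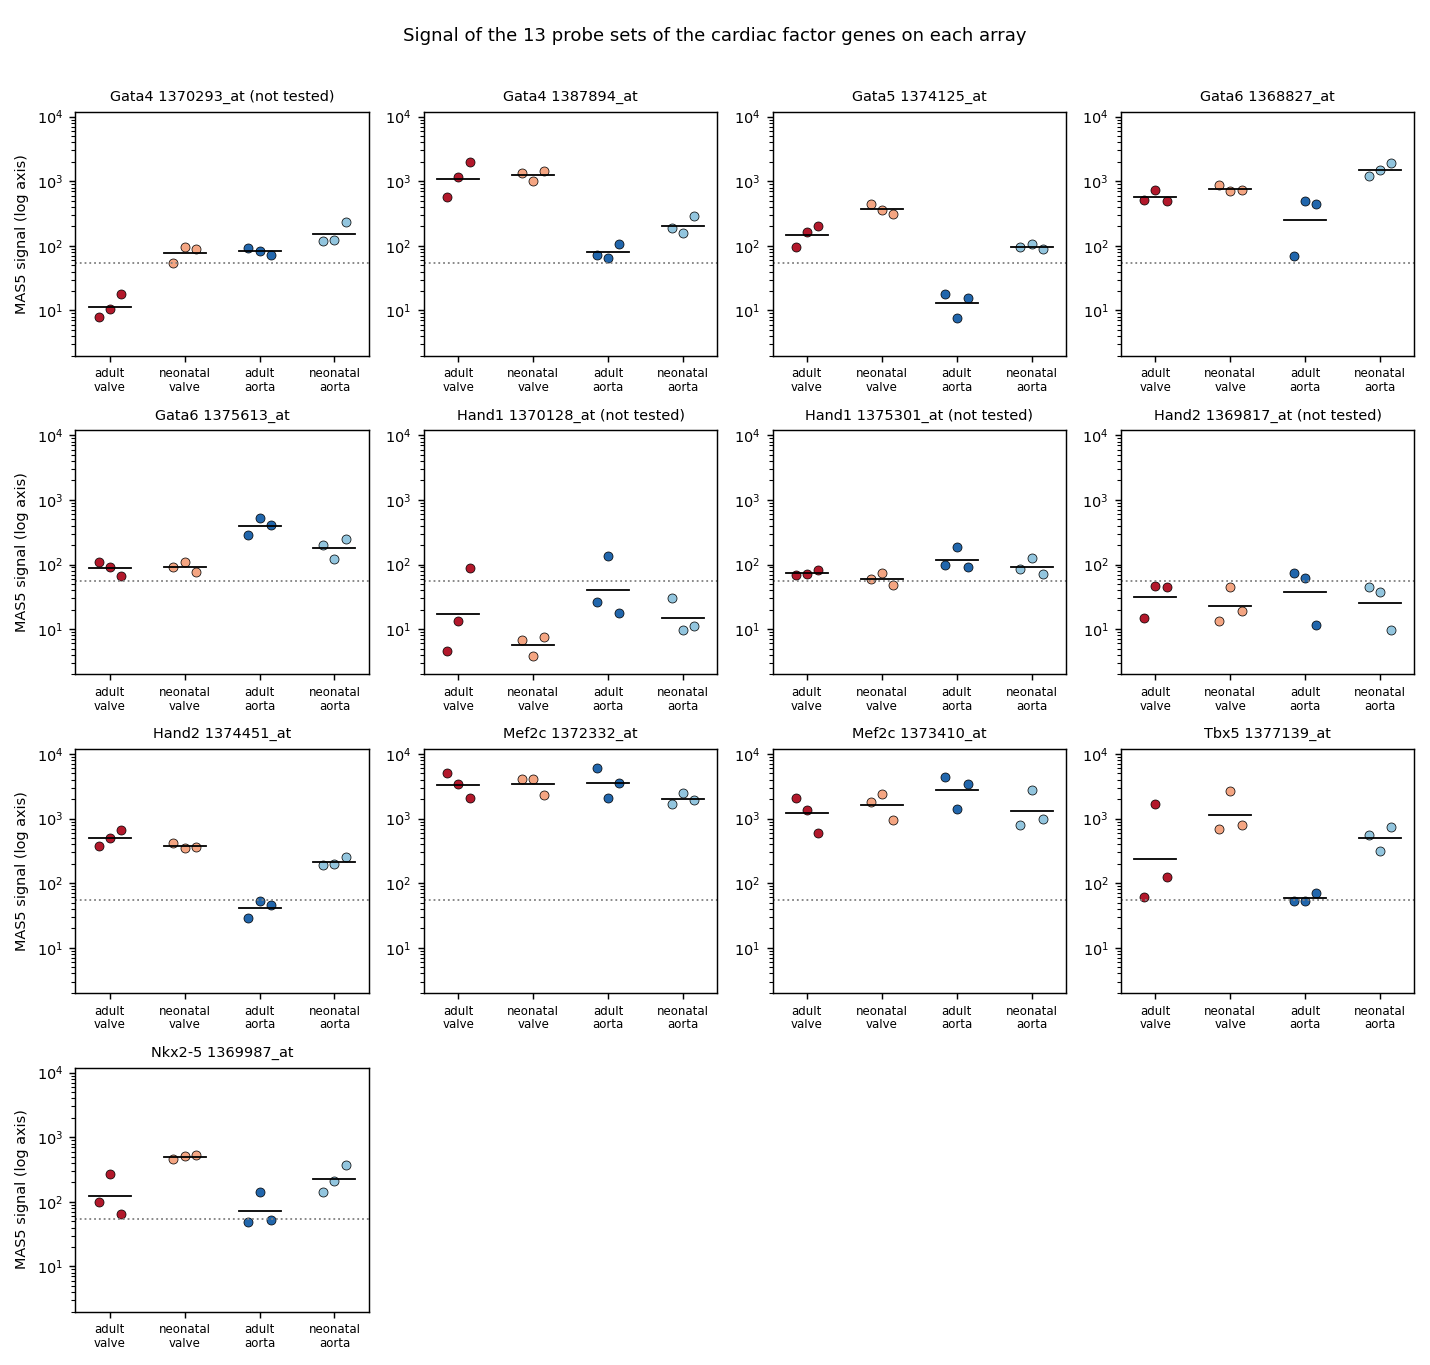
MAS5 signal (log axis) of all 13 probe sets on each of the 12 arrays, 1 point per array in replicate order, with a bar at the geometric mean of the 3 arrays of a group and a dotted line at the absent level of 54.6. Hand2 1374451_at and Gata5 lie below the line only in adult aorta, Gata4 1387894_at separates valve from aorta at both ages, and Tbx5 is split within the adult valve group.

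RefSeq gives a promoter sequence for 6 of the 9 genes, on build GRCr8, and the 3 genes among them that were called in a comparison of ages are shown here. Each is the 250 bases before the start given with that promoter sequence, on the strand of the gene. For Hand2 and Gata6 the window ends at the edge of the annotated gene. For Nkx2-5 it lies inside the annotated gene, which spans chr10:16844888-16851458. Capitals mark the GATA letters AGATAA on either strand and the E-box letters CANNTG. Hand2 lies on chr16:37931489-37931738 (minus strand), Nkx2-5 on chr10:16848350-16848599 (plus strand) and Gata6 on chr18:2460659-2460908 (plus strand).
Hand2: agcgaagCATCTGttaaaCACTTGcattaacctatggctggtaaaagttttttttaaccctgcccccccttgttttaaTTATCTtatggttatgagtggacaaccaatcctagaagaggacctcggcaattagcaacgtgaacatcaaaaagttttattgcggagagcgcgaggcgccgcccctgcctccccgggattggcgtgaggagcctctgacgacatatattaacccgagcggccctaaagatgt
Nkx2-5: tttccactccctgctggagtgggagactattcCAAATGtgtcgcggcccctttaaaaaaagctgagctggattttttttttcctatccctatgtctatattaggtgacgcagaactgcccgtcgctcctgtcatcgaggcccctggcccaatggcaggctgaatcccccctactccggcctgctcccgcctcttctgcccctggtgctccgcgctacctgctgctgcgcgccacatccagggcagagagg
Gata6: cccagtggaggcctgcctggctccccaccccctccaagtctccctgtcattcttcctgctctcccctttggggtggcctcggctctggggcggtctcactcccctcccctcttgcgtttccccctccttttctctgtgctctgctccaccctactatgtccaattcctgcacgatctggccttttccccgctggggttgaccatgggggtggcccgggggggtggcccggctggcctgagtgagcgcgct
The Hand2 window held AGATAA once, on the opposite strand (read as TTATCT 172 to 167 bases before the start), and 2 E-boxes, at 243 to 238 bases and at 232 to 227 bases. The NK2 letters AAGTG were also found there once, on the opposite strand at 232 to 228 bases, and they overlap the E-box nearer to the start. Nkx2-5 held 1 E-box at 218 to 213 bases, and Gata6 held none of the letters searched. In the same window of 33469 rat promoters, searched on both strands, AGATAA was in 10.3%, CANNTG in 65.5%, AAGTG in 40.6% and the T-box letters AGGTGT in 11.6%. These matches describe the letters only. Gata4, Gata5 and Mef2c are not in the table.

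In adult against neonatal aorta, 3 of the 9 tested probe sets were called lower (Hand2, Gata5 and 1 of 2 for Gata6) and 0 higher. Over all probe sets tested 7.31% were called, 5.37% lower and 1.94% higher. At an unadjusted p under 0.05 limma gave 7 of the 9, against 23.4% of all. The median log2 difference of the 9 was -1.64, beside -0.083 over all probe sets. The arrays of both ages did not overlap in 6 of the 9, against 30.9% of all. Among the valve arrays by age 1 of the 9, Nkx2-5, was called lower and 0 higher, where 9.21% of all probe sets were called (5.21% lower and 4.00% higher). Here 3 of the 9 had an unadjusted p under 0.05, against 26.6% of all, the median difference was -0.41 beside -0.038 over all, and 2 of the 9 did not overlap, against 33.4% of all. With only the groups compared in the fit, Gata5 (limma adjusted p = 0.075) and Gata6 by 1368827_at (0.11) were not called in the aorta by age and Tbx5 was (0.014), while Nkx2-5 was not called in the valve by age (0.052). The share called among the 9 valve values is close to the background of that comparison.

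In neonatal valve against neonatal aorta 2 of the 9 were called higher (Gata4 and Gata5) and 0 lower, while 32.6% of all probe sets were called (13.3% higher and 19.3% lower), so the count is not above the background. The median difference of the 9 was 0.83, beside -0.088 over all, 4 had an unadjusted p under 0.05, against 43.5% of all, and 6 of the 9 did not overlap, against 59.7% of all. The count was 4 without adult valve 3 and 5 without adult aorta 1. With only the groups compared in the fit it was 7, where 9008 of the 18552 probe sets were called. In adult valve against adult aorta 3 of the 9 were called higher (Gata4, Gata5 and Hand2) and 1 lower (1 of 2 for Gata6), beside 37.1% of all probe sets (17.3% higher and 19.9% lower), so this count too is near the background. The median of the 9 was 1.20, beside -0.048 over all. Of the 9, 4 had an unadjusted limma p under 0.05, against 47.5% of all, and 4 did not overlap, against 44.3% of all. Centring each array on its median moved every difference between valve and aorta up by 0.33 in neonates and 0.39 in adults. The called values of the members kept their direction and call after centring and after quantile normalization, except Nkx2-5 in valve by age (-1.95 with a limma adjusted p of 0.052 after centring, and -1.84 with 0.076 after quantile normalization).

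**Figure D2:**
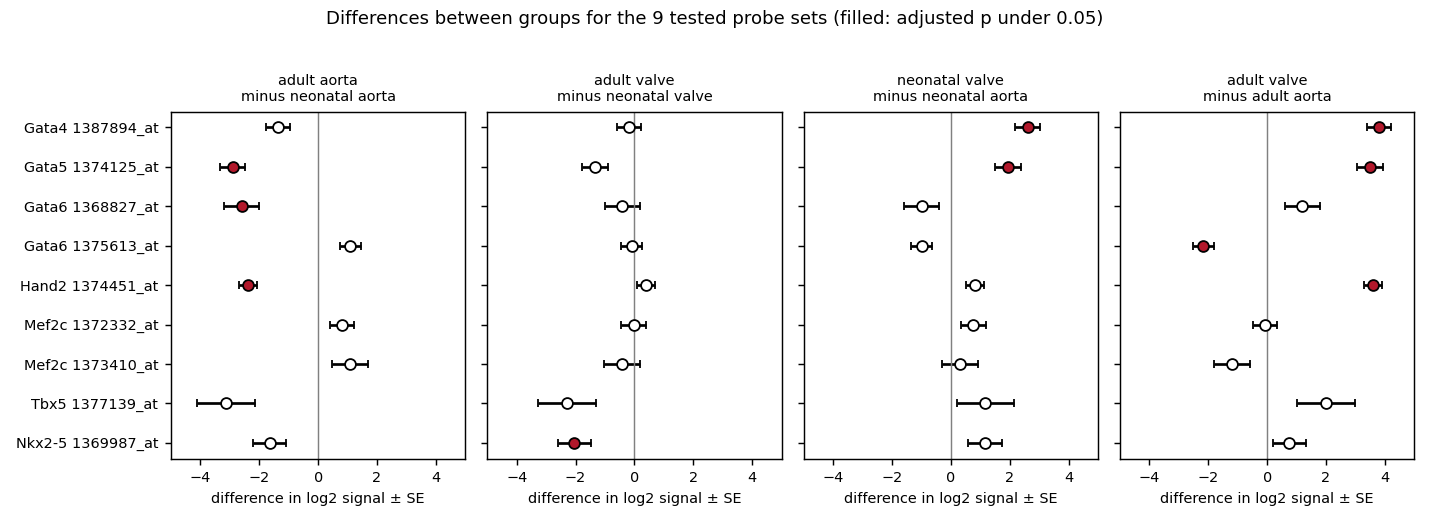
Differences in log2 signal between groups (x axis, first group minus second) for the 9 tested probe sets, with points at the fitted value, bars of 1 standard error of the limma fit, and filled points at an adjusted p under 0.05. Filled points lie left of 0 for 3 probe sets in the aorta by age and right of 0 for Gata4, Gata5 and Hand2 in adult valve against adult aorta.

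Whether age acted differently in both tissues was asked with the age difference in valve minus the age difference in aorta. None of the 9 probe sets was called by limma (0 of 9, with 4 at an unadjusted p under 0.05, against 11.7% of all), and 11 of the 18552 probe sets were called in all (0.0593%, of which 0.0485% higher and 0.0108% lower). Hand2 had the smallest p of the 9, with a difference of 2.77 ± 0.43 and a limma adjusted p of 0.058. It was called without adult valve 1 (2.98, limma adjusted p = 0.043), adult aorta 1 (2.52, 0.037) or adult aorta 2 (2.95, 0.040), after centring (2.83, 0.043) and after quantile normalization (3.08, 0.018). Its arrays were 371, 508 and 657 in adult valve beside 421, 352 and 366 in neonatal valve, and 28.8, 52.8 and 45.4 in adult aorta beside 189, 198 and 257 in neonatal aorta, so the ages overlapped in valve and were apart in aorta. As the adult aorta arrays of Hand2 and Gata5 lay at or below the absent level, their fitted values here are no measure of size, and with 32 added to every signal they were 2.11 for Hand2 and 0.34 for Gata5. For the other members the difference of age differences was 1.57 ± 0.62 for Gata5 (limma adjusted p = 0.36), 1.18 ± 0.59 for Gata4 (0.46), -0.41 ± 0.80 for Nkx2-5 (0.88) and 0.83 ± 1.39 for Tbx5 (0.86). Both Gata6 probe sets again took opposite signs, at 2.19 ± 0.85 (0.35) and -1.18 ± 0.50 (0.39).

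Heart muscle markers varied between arrays of a group, as did several of the cardiac factors. The summed signal of 21 measured heart muscle markers was 32250, 176257 and 10062 on adult valve arrays and 187239 to 197556 on neonatal valve arrays. It was 128614, 8121 and 9635 on adult aorta arrays and 67937 to 100368 on neonatal aorta arrays. The high sum of adult aorta 1 came with skeletal muscle, as the ventricular and slow muscle light chain Myl3 read 29462 there while the heart troponin Tnnt2 read 107, and Tnni3, Myl2 and Nppa were at or below the absent level on all adult aorta arrays. In these bulk samples, fewer cells of a type and less RNA per cell cannot be told apart, and the part of heart muscle content in the differences between groups was not tested.

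On the valve arrays, Tbx5 was high where genes of atrial muscle were high, and among the adults this was not particular to atrial genes. The heart muscle sum, which includes atrial genes, was also highest on replicate 2 of each group (176257 in adult and 197556 in neonatal valve). So was Tnnt2, at 4249, 18839 and 1864 on adult and 16000, 19300 and 18825 on neonatal valve arrays. Among the neonates the sum ran only from 187239 to 197556. The atrial light chain Myl7 read 40.8, 14925 and 36.2 on the adult valve arrays and 4896, 16943 and 10733 on the neonatal valve arrays. The atrial natriuretic peptide gene Nppa read 30.9, 19398 and 115 on adult valve arrays and 3848, 20377 and 12448 on neonatal valve arrays. Both genes were highest on replicate 2 of each group, as Tbx5 was (1662 in adult and 2694 in neonatal valve). Myl2, the ventricular light chain, read 576, 878 and 294 on adult valve arrays and 9885, 1569 and 6769 on neonatal valve arrays. It too was highest on adult valve 2 among the adults, while among the neonates it was lowest on neonatal valve 2. Myl3 had the same pattern, at 1126, 1710 and 995 on adult and 10191, 192 and 7528 on neonatal valve arrays. Myh7 was also lowest on neonatal valve 2 among the neonates (16699, 1335 and 17670). Among the adults, however, Myh7 was highest on adult valve 1 (4121, 2890 and 39.8). Nkx2-5 was highest on adult valve 2 among the adults (269) and nearly even over the neonatal valve arrays (464 to 531), where Myl2 and Myl7 each differed widely. The genes were divided into atrial and ventricular ones after their values had been seen.

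Gata4, Gata5 and Hand2 had another order among the adult valve arrays. All 3 were highest on adult valve 3 (1998, 199.5 and 657 for the tested probe sets), where the heart muscle sum was lowest at 10062, and lowest on adult valve 1. The endothelial genes shown here, picked after their values had been seen, had the same order there, and others did not. Tek, the angiopoietin receptor, read 4419, 7267 and 16258 on adult valve arrays, and endomucin (Emcn) read 1143, 3255 and 6421. Kdr, a receptor for VEGF, ran the other way at 1221, 1114 and 530, as did the tight junction gene Cldn5 at 418, 304 and 122. The sum over 10 measured endothelial and endocardial markers was 13204, 20005 and 38319 on adult valve arrays and 9486 to 13995 on neonatal valve arrays. In aorta it was 5066 to 10745 on adult and 11956 to 15402 on neonatal arrays. With 3 arrays these orders are descriptions, and the part of endothelial content was not tested.

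Markers of other cell types were set beside the comparisons as well. Of 6 tested markers of mesothelium and epicardium, 2 were called higher and 0 lower in adult valve against adult aorta (median log2 difference 1.79). There 37.1% of all probe sets were called, so this count is not above the background. In adult against neonatal aorta 0 were called by limma, where 7.31% of all were called (median -1.71, with 4 at an unadjusted p under 0.05, against 23.4% of all probe sets). Of 6 tested adipocyte markers, 5 were called lower in neonatal valve against neonatal aorta (median -6.77) and 5 in adult valve against adult aorta (median -4.80). Over all probe sets 19.3% and 19.9% were called lower in these comparisons. The summed signal of 7 adipocyte markers was 3175 to 8085 on adult valve arrays and 3027 to 5290 on neonatal valve arrays, against 6493 to 114840 on adult aorta arrays and 29055 to 54039 on neonatal aorta arrays. The part of these cell types in the differences of the cardiac factors was not tested.

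**Figure D3:**
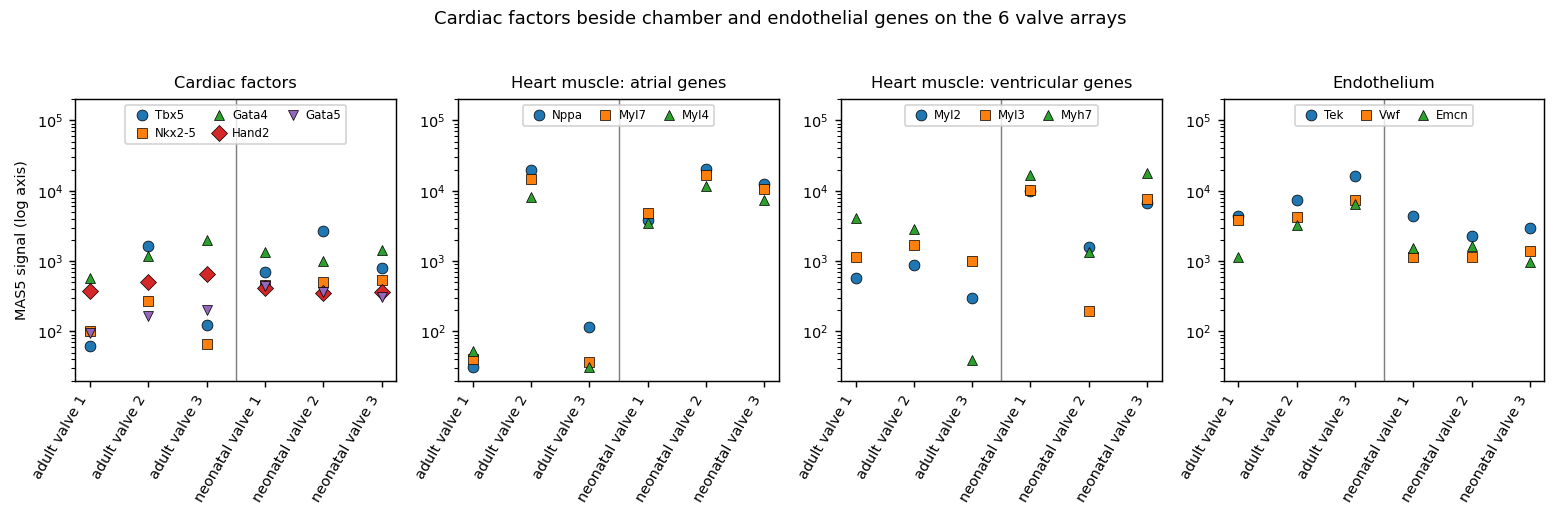
MAS5 signal (log axis) of 5 cardiac factors, 3 atrial, 3 ventricular and 3 endothelial genes on the 6 valve arrays, with adult arrays left of the grey line. Tbx5 and the atrial genes peak on replicate 2 of both ages, while Gata4, Hand2, Gata5 and the 3 endothelial genes drawn are highest among adults on adult valve 3. Kdr and Cldn5, endothelial genes not drawn, were lowest there. Levels are to be read along each gene and not between genes.

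The partners and relatives of these factors were a list of 31 genes, of which 22 were tested, among them other GATA, MEF2 and T-box factors, the E proteins that pair with HAND proteins, and the co-activators of serum response factor. In adult against neonatal aorta 0 were called by limma (3 at an unadjusted p under 0.05, against 23.4% of all), with a median of -0.19. Hey1, a Notch target and repressor, came nearest at -1.57 (limma adjusted p = 0.058). Without adult aorta 1 the count was 2. In adult against neonatal valve 1 was called, Tead1, a partner of YAP, lower by 0.79 on the log2 scale (-0.79 ± 0.22, limma adjusted p = 0.0495). That call was lost without any one of the 6 valve arrays, and without adult aorta 2 or 3 or neonatal aorta 2 or 3. It held in 2 of the 12 fits with 1 array left out. Without adult aorta 1 the list had 4 calls.

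Between the tissues more of the partners were called, as were more of all probe sets. In neonatal valve against neonatal aorta 5 of 22 were higher (Gata3, Mef2a, Srf, Tcf12 and Tead1) and Mrtfa, a co-activator of Srf, was lower, with a median of 0.29. These 6 of 22 are a smaller share than the 32.6% of all probe sets. Tead1 (1.95 ± 0.22, limma adjusted p = 0.00019) and the E protein gene Tcf12 (1.70 ± 0.34, adjusted p = 0.0034) were called without any single array. Gata3 was 2.61 ± 0.92 (adjusted p = 0.0496) and was lost without 8 of the 12 arrays in turn. The list had 3 calls without neonatal aorta 2 and 1 with the control RNA batch in the model, that of Tead1 (2.33, limma adjusted p = 0.0046). In adult valve against adult aorta 7 of 22 were higher and 2 lower, with a median of 0.91, and these 9 of 22 are near the background of 37.1%. The E protein genes Tcf12 (2.19 ± 0.34, limma adjusted p = 0.00077) and Tcf4 (1.20 ± 0.28, 0.0070) were among those higher, as were Gata2, a GATA factor of endothelium and blood cells (1.96 ± 0.49, 0.010), and Nfatc1, a factor of valve endocardium (1.49 ± 0.36, 0.0080). Mef2a and Tead1 were higher by 0.97 and 0.85. Tcf21, a factor of epicardium and fibroblasts, was higher by 2.14 but was called in only 1 of 12 fits with 1 array left out. Tbx3, a T-box repressor of the conduction system, was lower (-2.70 ± 0.57, limma adjusted p = 0.0042), and so was Mef2d (-0.75 ± 0.24, 0.030). None of the 22 was called by limma in the difference of age differences (0, with 5 at an unadjusted p under 0.05, against 11.7% of all).

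**Figure D4:**
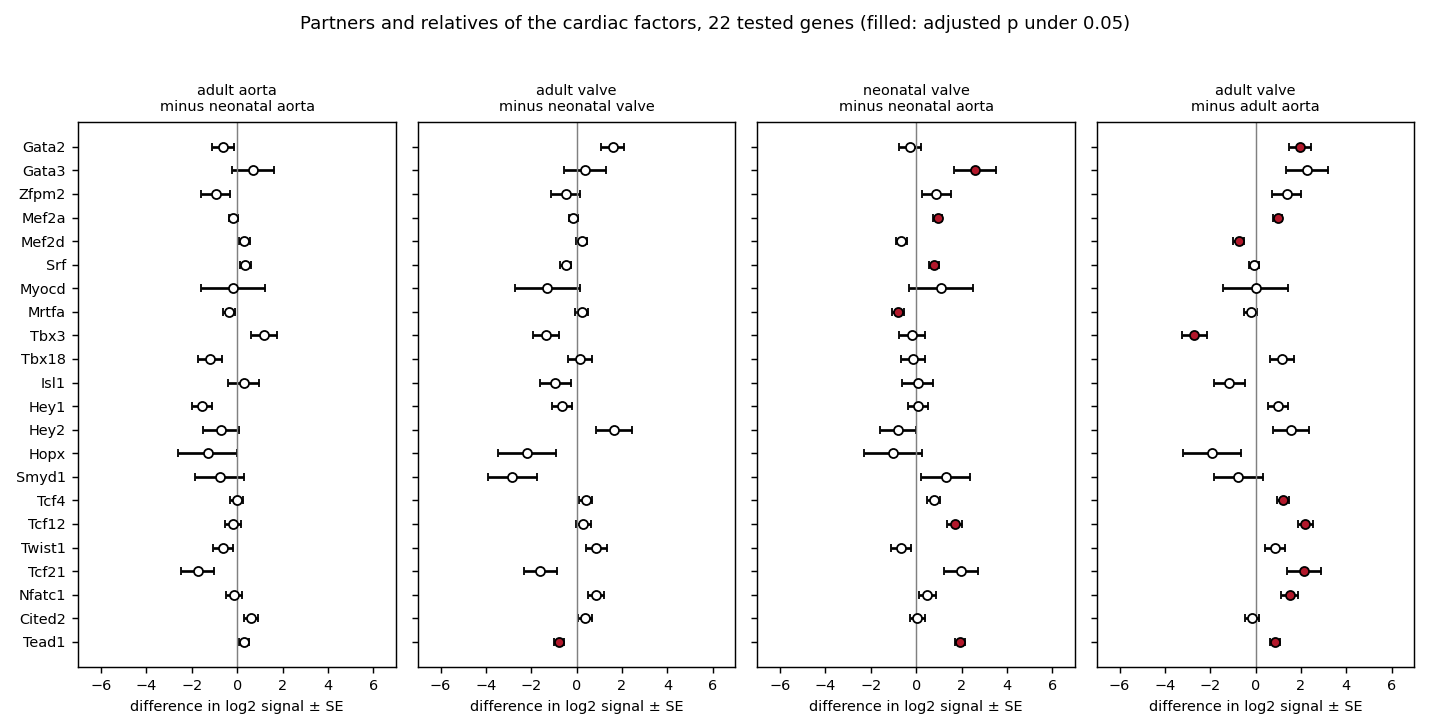
Differences in log2 signal between groups (x axis, first group minus second) for the 22 tested partners and relatives, with bars of 1 standard error of the limma fit and filled points at an adjusted p under 0.05. No point is filled in the aorta by age and 1 is filled in the valve by age, while 6 and 9 are filled between the tissues in neonates and adults.

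Known targets of these factors in heart muscle were a list of 20 genes, of which 17 were tested. The list was drawn from heart muscle, and 9 of its measured genes are also among the 21 heart muscle markers above, so it does not stand apart from muscle content. By age in aorta, 6 were called lower and 0 higher, where 7.31% of all probe sets were called, with a median of -1.81. These were Myh6, Tnnc1, Tnni3, Myl2, Myl7 and Ankrd1, contractile genes and a stress-responsive repeat protein. Tnni3, the heart troponin I gene, read 18.2, 23.0 and 25.0 on adult aorta arrays, against 4290, 2295 and 6677 on neonatal aorta arrays. With the control RNA batch in the model 2 were called, Tnni3 (limma adjusted p = 0.038) and Myl2 (0.028), and without adult aorta 2 the count was 4. By age in valve, 3 were called lower (Tnnc1, Slc8a1 and Myl2) and 0 higher, where 9.21% of all were called, with a median of -2.13. That count was 10 without adult valve 2 and 0 without neonatal valve 1.

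In neonatal valve against neonatal aorta 4 of the 17 targets were called higher (Nppa, Nppb, Mybpc3 and Slc8a1) and Id2, an inhibitor of helix-loop-helix factors, was called lower (-1.87 ± 0.41, limma adjusted p = 0.0055), with a median of 1.30. These 5 of 17 are not above the background of 32.6%. The count was 9 without adult valve 3 and 1 with the control RNA batch in the model, which was Nppb (6.77, limma adjusted p = 0.024). In adult valve against adult aorta 8 were called higher (Nppb, Myh6, Myh7, Tnnc1, Tnni3, Slc8a1, Myl2 and Ankrd1) and 0 lower, with a median of 3.15, beside 37.1% of all probe sets called. Nppb, the B-type natriuretic peptide gene and a classical target of Gata4, was higher by 5.63 ± 0.97 (limma adjusted p = 0.0014). In the difference of age differences 0 of 17 were called by limma, with 5 at an unadjusted p under 0.05, against 11.7% of all.

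For each measured member, the 3 genes best correlated with it over the 12 arrays, in log2 of the signal plus 32, were listed as a description. All values come from the same 12 arrays and share their 4 groups, so a gene that separates valve from aorta correlates with any other that does. Gata4 was closest to Celf1, Tgs1 and Rwdd4 (each r = 0.97), Gata5 to Ttc3, Srek1 and Smarce1 (each 0.97), and Hand2 to Vnn1 (0.97), Pbx3 (0.96) and Eif2ak4 (0.96). Gata6 by 1368827_at was closest to P3h4, Pth1r and Adpgk (each r = 0.96), and all 3, like Gata6, were lowest on adult aorta 1. Tbx5 was closest to Rd3l (0.94), Sec16b (0.92) and the atrial gene Myl7 (0.92). Nkx2-5 was closest to Frmd5 (0.94), Pogz (0.94) and Mef2a (0.93), a relative of Mef2c and a partner on the list above. Mef2c by 1372332_at had the weakest company, with Tmem38b (0.91), Proser2 (0.89) and Bnip3 (0.86), and for Hand1, which was not tested, the closest were Acad11 (0.94), Hrg (0.94) and Kash5 (0.93).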

How the data were processed

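Trizol and RNeasy columns were used for RNA extraction, and the RNA was labelled with biotin by in vitro transcription, per the labels' protocols. Per the submitters' processing notes, the authors used Affymetrix Expression Console with the MAS5 algorithm, and the deposited files hold its linear intensity values, 1 signal for each probe set. Program versions and the scaling target are not stated there. The table held 31099 probe sets, 57 of them controls, on 12 arrays, and precision is limited by 3 arrays per group. Gene names came from the array's annotation table, which gives 1 symbol to 20832 probe sets, several to 436 and none to 9831. That table can be old.

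Analysis used log2 of the signals as deposited, after values below 1 were raised to 1. Probe sets above 172 on at least 3 arrays were tested, and this filter left 18552. limma 3.58.1 in R 4.3.3 fitted 1 mean per group to all arrays (lmFit and eBayes, trend on mean signal, 8 residual degrees of freedom), two-sided, with Benjamini-Hochberg adjustment over all probe sets tested. Where a probe set was at or below the absent level on every array of a group, a bound was computed from the other group's mean over that level. It makes no allowance for the spread of that group. Every member probe set was named. A listed gene stood for its probe set with the highest mean, and any of these genes that was called could be named. The members and lists were chosen with earlier results of these data known. Fits were tested on simulated data.

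Alternatives were 32 added to the signal, no filter, quantile normalization, centring, a replicate block, the control RNA batch, the other label grouping, only the groups compared, leaving out adult aorta 1 with neonatal valve 3, and leaving out each array. Motifs and figures used Python 3.11.15, pandas 2.3.3, numpy 2.4.6 and matplotlib 3.10.9.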

Additional observations from a re-analysis of the deposited data

How the results depend on the processing

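Each array was left out in turn. The number of member probe sets called ran from 2 to 4 in adult against neonatal aorta (3 with all arrays), 0 to 2 in adult against neonatal valve (1), 2 to 5 in neonatal valve against neonatal aorta (2), 4 to 5 in adult valve against adult aorta (4) and 0 to 1 in the difference of age differences (0). The 0 of Nkx2-5 in valve by age came without adult valve 1 or 3, or any one neonatal valve or neonatal aorta array. With the control RNA batch in the model 0 were called in aorta by age, 0 in valve by age and 1 between neonatal tissues. Quantile normalization gave 5 in aorta by age, 0 in valve by age and 1 in the difference of age differences, and centring gave 0 in valve by age and 1 in the difference of age differences. Valve by age also gave 0 without adult aorta 1 and neonatal valve 3, 0 with only the groups compared and 2 with 32 added to the signal, and neonatal tissues gave 7 with only the groups compared, where 9008 of all probe sets were called (6043 in the fit of all groups). With only the groups compared, aorta by age had 2 calls, as Gata5 (limma adjusted p = 0.075) and Gata6 (0.11) lost theirs and Tbx5 (0.014) gained one. The causes were not tested.

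With groups by the description and tissue entries, valve by age had 4 calls and adult tissues had 1, and 12 values that were called under one of the groupings changed sign, as did some uncalled ones. For those 12, adult against neonatal aorta read 2.61 for Gata4, 1.93 for Gata5 and 0.83 for Hand2. Adult against neonatal valve read 3.79 for Gata4, 3.50 for Gata5 and 0.76 for Nkx2-5, neonatal valve against neonatal aorta read -1.37 for Gata4, -2.91 for Gata5 and -2.37 for Hand2, and adult valve against adult aorta read -0.19 for Gata4, -1.34 for Gata5 and -2.05 for Nkx2-5. Those are the same arrays under exchanged names.

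Of 936 values of single probe sets under an alternative, 858 kept their direction or stayed uncalled, 26 lost their call, 40 gained one and 12 reversed, and 28 of the uncalled ones changed sign. Over all probe sets, the number called in aorta by age was 1357 with all arrays, 69 with the control RNA batch, and 431 to 2485 with 1 array left out. Leaving 1 array out gave 662 to 3093 in valve by age (1709 with all arrays), 4101 to 7386 between neonatal tissues (6043), 5692 to 7048 between adult tissues (6891) and 1 to 37 for the difference of age differences (11). Centring changed the split of higher and lower calls to 873 and 670 in valve by age (742 and 967 without it), to 4072 and 2381 between neonatal tissues (2461 and 3582), and to 5308 and 2264 between adult tissues (3207 and 3684).

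Of 18 pairs of arrays with the same replicate number in their titles, 3 had deviations from the group means that correlated above 0.1. Over these pairs r ran from -0.31 to 0.24. Arrays with different numbers were not set beside them, so these values cannot decide whether arrays were paired. With the replicate block 4 members were called in aorta by age, 1 in valve by age, 2 between neonatal tissues, 4 between adult tissues and 0 in the difference of age differences. Counts for the partner and target lists under these alternatives were added after the data had been seen. Signals near the absent level limit what can be said of Hand1, the adult aorta values of Hand2 and Gata5, and the second probe sets of Gata4 and Hand2.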
